A study of Mus musculus with 6 samples.

Results

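Transcripts of the cytosolic ribosomal proteins were measured in mouse quadriceps on Affymetrix arrays. The genes were taken by symbol, as every probe set other than controls that the platform annotation assigns to exactly 1 gene named Rpl or Rps with a number, Rplp0 to Rplp2, or Rpsa. The rule gave 105 probe sets for 49 genes, out of 45037 probe sets and 18193 genes. The 3 wild-type and 3 transgenic arrays came from separate biological replicates, according to the titles. All animals were males of 8 weeks on the C57/BL6 strain, and the transgenic animals carried ERRγ (Esrrg), an orphan nuclear receptor, under the skeletal actin promoter, which drives expression in skeletal muscle fibres. The labels do not say how many transgenic founder lines the animals came from. The comparison of genotypes asks how muscle transcripts differ when ERRγ is forced to a high level. The values are MAS5 signals with an equal trimmed mean on every array, and their errors rest on 3 arrays per genotype.

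The cytosolic ribosome is built of a small subunit, whose proteins have the prefix Rps, and a large subunit, whose proteins have the prefixes Rpl and Rplp. Their genes are highly expressed, their proteins are needed in near equal amounts, and most of their messages begin with a run of pyrimidines, the terminal oligopyrimidine motif, through which the TOR pathway and the RNA-binding protein LARP1 control how well they are translated. An array of total RNA measures the level of the messages and not their translation. In adult striated muscle, Rpl3l, a relative of Rpl3, encodes a large-subunit protein that can take the place of the Rpl3 protein in the ribosome.

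The start of some of these messages is shown because it carries the motif that marks the family. RefSeq promoter windows of build GRCm38.p6, from 250 bases before to 50 bases after each annotated start, were matched by symbol for 43 of the 49 genes. Each line has 10 bases before the annotated start and 20 from it, 5′ to 3′ on the gene's strand, with every run of a C followed by 4 or more letters C or T in capitals. Rpl38 was the member that passed the test, Rplp2 is a stalk protein gene, Rpl3l is the muscle gene, and Rps6, Rps18, Rps10, Rpl35, Rps27 and Rpl14 show how the run varies.
Rpl38, chr11:114668570-114668599, plus strand: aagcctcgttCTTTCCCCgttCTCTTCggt
Rplp2, chr7:141447641-141447670, plus strand: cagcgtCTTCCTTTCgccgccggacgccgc
Rps6, chr4:86857348-86857377, minus strand: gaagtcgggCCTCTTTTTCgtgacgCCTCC
Rps18, chr17:33955646-33955675, minus strand: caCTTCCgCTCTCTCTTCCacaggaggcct
Rps10, chr17:27635225-27635254, minus strand: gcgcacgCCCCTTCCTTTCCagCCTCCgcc
Rpl35, chr2:39005112-39005141, minus strand: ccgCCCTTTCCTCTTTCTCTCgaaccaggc
Rps27, chr3:90213629-90213658, minus strand: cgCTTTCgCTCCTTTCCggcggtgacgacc
Rpl14, chr9:120571507-120571536, plus strand: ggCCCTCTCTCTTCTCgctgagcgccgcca
Rpl3l, chr17:24727816-24727845, plus strand: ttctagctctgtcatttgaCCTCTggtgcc
A C followed by 4 letters C or T on the gene's strand, lying wholly between 5 bases before and 10 bases from the start, was present in 20 of the 43 genes, 46.5%, against 21.2% of 27025 genes with a window. Rpl38 and Rps18 hold such a run at or across the start, while the run of Rpl3l crosses the downstream edge of this window, so that Rpl3l is not counted among the 20. The annotated start can be off by some bases, so a missing run says only that these letters are not in this window.

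The array labels were checked first on Esrrg. Its brightest probe set gave signals of 71.6, 61.0 and 24.1 in wild-type 1 to 3 and of 14427.2, 13807.7 and 12697.0 in transgenic 1 to 3. At this probe set all transgenic arrays were thus far above all wild-type arrays, as the labels have it. A dimmer probe set of Esrrg gave 84.1 to 117.7 in wild-type and 101.6 to 174.3 in transgenic arrays. Another gave 36.9 to 40.1 against 49.7 to 58.4, and neither was called by the test below.

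The ribosomal protein transcripts differed little between the genotypes. Signals were compared as log2(signal + 16) with limma over the 26995 probe sets whose mean signal was above 37.8, and a difference was called at a Benjamini-Hochberg adjusted p below 0.05. Of the 93 ribosomal protein probe sets tested, 1 was called, or 1.08%, where 11.5% of all tested probe sets were called, 6.38% as higher and 5.16% as lower. With each gene represented by its brightest probe set, 48 of the 49 genes were tested, and 1 of them, Rpl38, rose in the transgenic muscle, while 0 fell. Of all 12529 tested genes, 13.4% were called, 7.65% as higher and 5.75% as lower. At an unadjusted p below 0.05, the family had 8 genes, 7 higher and 1 lower, or 16.7% against 27.9% of all tested genes, 15.5% higher and 12.4% lower.

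Within the deposited scaling the precision for these genes was high, so that the few calls come with narrow limits. Those limits do not include the effect of scaling the arrays in another way, which is given further below. The median standard error of the log2 difference was 0.10 over the 48 genes and 0.17 over all tested genes. The 95% interval of the difference lay within 1.5-fold in either direction for 40 of the 48 genes, 83.3%, against 38.5% of all tested genes, and for 73 of the 93 probe sets, 78.5%, against 33% of all tested probe sets. At the brightest probe set of each gene the median signal was 4527 for the family and 208.3 over all tested genes, although a signal also depends on the probes and is not a transcript count. Among genes above a floor of 1000 in mean signal, which were not otherwise matched for brightness, the count of calls was also low. Of the 37 ribosomal protein genes with a mean signal above 1000, 1 was called, while 33.5% of the 1730 tested genes above that signal were. The interval lay within 1.5-fold for 36 of those 37 genes, against 58.9% of the 1730, and within 2-fold for all 37. Rpl41 was the gene among the 37 with the wider interval. Among the 11 dimmer genes, the interval lay within 1.5-fold for 4 and within 2-fold for 9, while those of Rps4l and Rpl39l reached past a 2-fold fall.

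**Figure D1:**
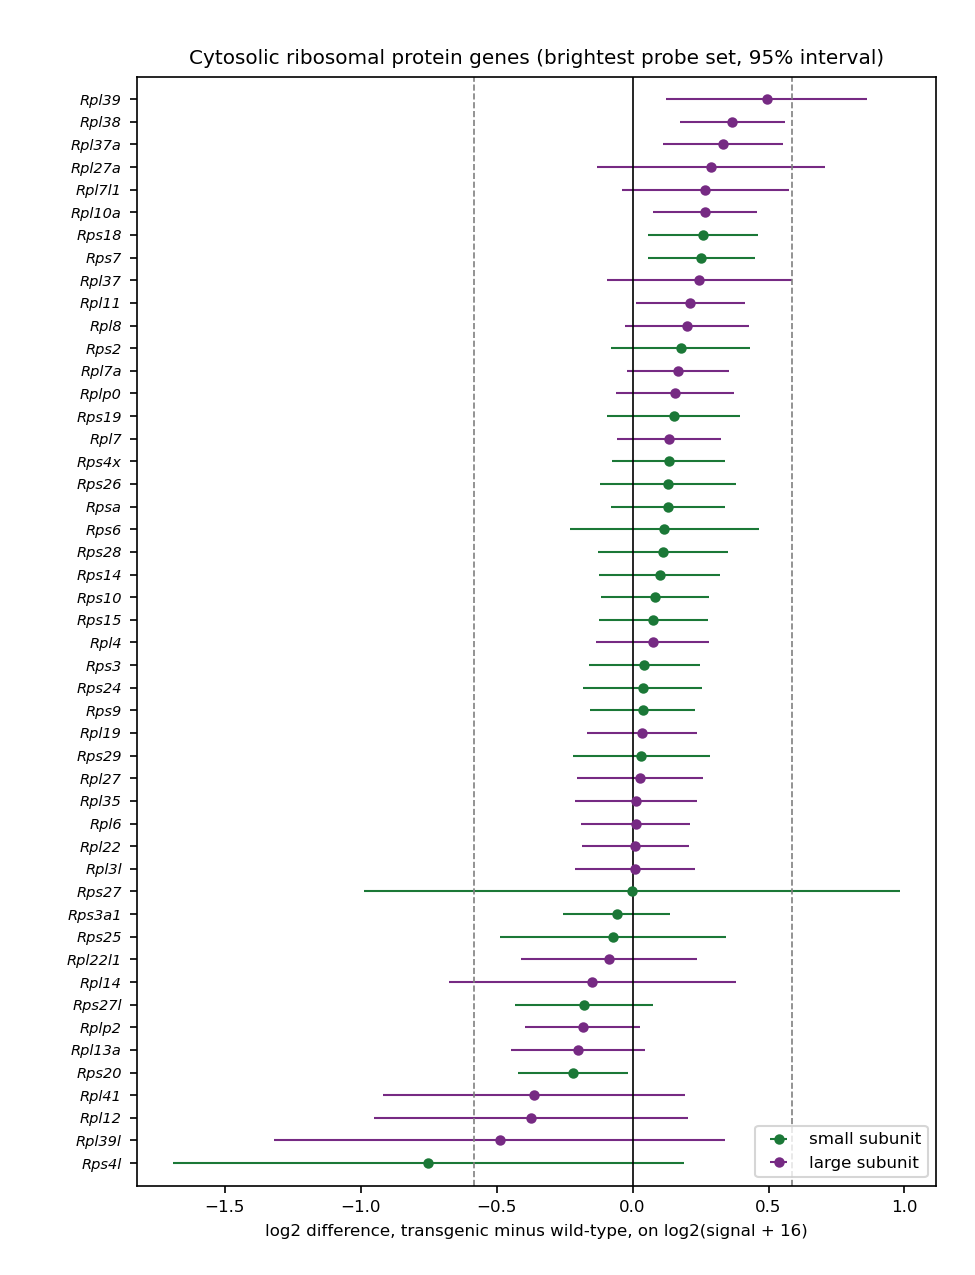
Log2 difference, transgenic minus wild-type on log2(signal + 16), of the 48 tested ribosomal protein genes at their brightest probe set, with 95% intervals. Purple marks the large subunit and green the small subunit, and the dashed lines stand at 1.5-fold. Most intervals lie between the dashed lines, and the wide ones belong to dim probe sets such as Rps4l, Rpl39l and Rps27 and to Rpl41.

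The median log2 difference of the 48 genes was 0.07, with quartiles of -0.02 and 0.17 and a range from -0.75 to 0.49, and 35 genes had a positive difference. Over all tested genes the median was 0.03, with quartiles of -0.20 and 0.29. The sign of these small differences depended on how the arrays were scaled. With every array scaled to a common median signal, the median of all genes moved to -0.11 and that of the ribosomal protein genes to -0.08, and 14 of the 48 genes had a positive difference. With quantile normalization, the medians were -0.01 for all genes and 0.01 for the ribosomal protein genes, with 24 positive. Measured from the median of all genes, the family stood at 0.04 as deposited, 0.03 with median scaling and 0.01 with quantile normalization. Both of those scalings called 0 genes higher and 1 lower, Rps20, in place of Rpl38. Of all tested genes, median scaling called 4.32% higher and 9.79% lower, and quantile normalization 7.1% and 5.9%.

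**Figure D2:**
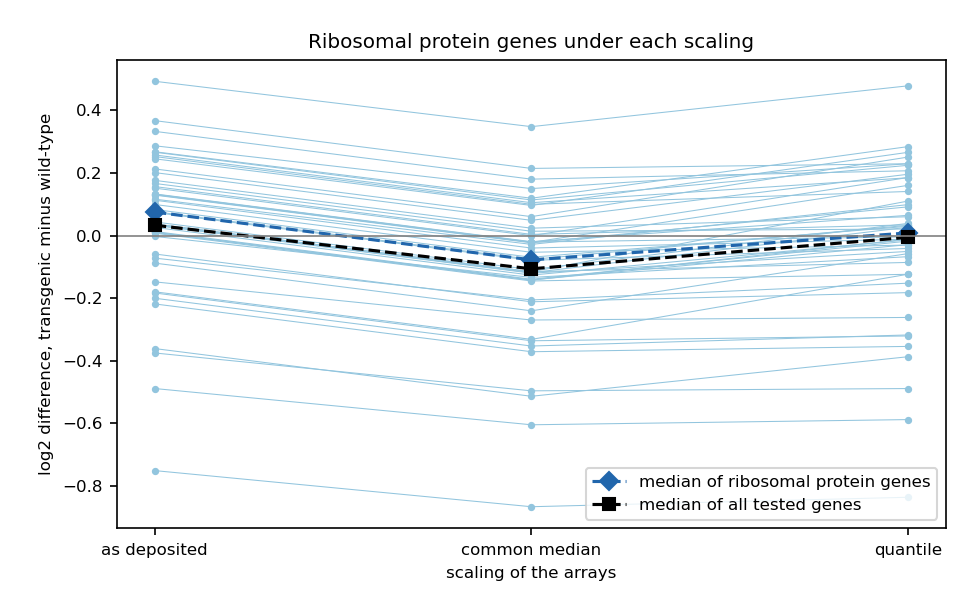
Log2 difference of each ribosomal protein gene (thin lines) with the arrays scaled as deposited, to a common median, or by quantile normalization. Blue diamonds give the median of these genes and black squares that of all tested genes, and both sets of medians move together, from 0.07 and 0.03 as deposited to -0.08 and -0.11 with a common median.

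Rpl38, a small protein of the large subunit known for a role in translating homeobox messages in the mouse embryo, gave signals of 7138.9, 6654.1 and 6440.1 in the wild-type arrays and of 8379.8, 9115.2 and 8609.8 in the transgenic arrays. Every transgenic array lay above every wild-type array, with means of 6744 ± 358 and 8702 ± 376 (SD, n = 3 each). The log2 difference was 0.37 with a standard error of 0.09, a 1.29-fold rise with a 95% interval of 1.13 to 1.48, and a limma adjusted p of 0.0224. This call was not stable. It passed under 10 of 19 alternatives and missed under 9, with adjusted p from 0.0164 to 0.167 and differences from 0.21 to 0.41. The adjusted p by limma was 0.0897 without wild-type 2, 0.0622 without transgenic 1, 0.0680 without transgenic 2 and 0.0572 without transgenic 3. It was 0.167 with median scaling and 0.0646 with quantile normalization. Rpl38 has a single probe set here, of the type whose probes can also match other transcripts.

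Arrays of the genotypes did not overlap for 13 genes, 10 higher and 3 lower, or 27.1%, where 33.3% of all tested genes did not overlap, 18.6% higher and 14.7% lower. Of the 93 probe sets, 13 were higher and 5 lower without overlap, 19.4%, against 31% of all tested probe sets, 17.8% higher and 13.2% lower. The genes are named here after their values were seen, and apart from Rpl38 none of them passed the test. With median scaling the counts were 4 higher and 7 lower, where 10.6% of all tested genes were higher and 23.8% lower without overlap. With quantile normalization they were 8 and 4, against 16.7% and 16.2% of all tested genes.

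The higher ones in the large subunit were Rpl39, Rpl38, Rpl37a, Rpl7l1, Rpl10a, Rpl11, Rpl7a and Rpl7. Rpl39, which encodes a very small protein at the peptide exit tunnel, had signals of 264.2, 195.2 and 290.0 in wild-type arrays and 397.1, 363.5 and 306.0 in transgenic arrays. Its log2 difference was 0.49 (standard error 0.17, limma adjusted p = 0.0873), and without wild-type 3 the adjusted p was 0.0480. That probe set is dim. A bright one that lists Rpl39 with Gm32211 had 11588.0, 10540.4 and 10188.8 against 11898.8, 9967.0 and 11105.5, a difference of 0.03 with a 95% interval of -0.19 to 0.24. Rpl37a, a zinc-binding protein gene, had 7343.0, 6607.9 and 6427.6 against 8806.9, 9170.4 and 7729.2. Its log2 difference was 0.33 (standard error 0.10, limma adjusted p = 0.0561), and it passed without transgenic 3 at 0.0458. Transgenic 3 was the lowest transgenic array for both genes, and neither gene passed with all 6 arrays.

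Rpl10a, which encodes the protein of the L1 stalk where spent transfer RNA leaves, had 4885.4, 4672.6 and 4605.7 in wild-type arrays and 5600.5, 5954.4 and 5495.0 in transgenic arrays, a log2 difference of 0.27 with an adjusted p of 0.0759 by limma. Rpl11, a partner of the 5S ribosomal RNA that can also bind the p53 regulator MDM2, had 3371.5, 3307.2 and 3447.6 against 4146.3, 3917.5 and 3691.8. Its difference was 0.21 (limma adjusted p = 0.166). The differences of Rpl7a and Rpl7 were 0.17 and 0.13, and Rpl7 turned to -0.02 with median scaling. The next brightest probe set of Rpl7 went the other way, at -0.18, with all transgenic arrays below all wild-type arrays.

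In the small subunit, Rps18 and Rps7 were the non-overlapping genes on the higher side. Rps18, whose protein sits in the head of the subunit, had 4948.4, 4970.3 and 5494.3 in wild-type arrays and 5815.8, 6159.5 and 6455.6 in transgenic arrays. The log2 difference was 0.26 with a limma adjusted p of 0.10, and 0.0490 without wild-type 3. Rps7, whose product takes part in the maturation of small-subunit RNA, had 6185.8, 5567.1 and 5617.0 against 6962.8, 7109.7 and 6614.6, a difference of 0.25 (limma adjusted p = 0.0976). Neither gene passed with all 6 arrays. The other tested probe sets of Rps18 stood at 0.25 and 0.03 and that of Rps7 at 0.11, all with overlapping genotypes.

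The lower ones were Rps20, Rpl13a and Rplp2. Rps20, a protein gene of the head of the small subunit, had 8972.9, 7806.3 and 7868.9 in wild-type arrays and 6982.3, 6839.9 and 7319.6 in transgenic arrays. Its log2 difference was -0.22 with a standard error of 0.09 and a limma adjusted p of 0.164. With median scaling it was -0.37 (limma adjusted p = 0.0291) and with quantile normalization -0.35 (0.0140), so that both other scalings called Rps20 lower. As deposited, its other tested probe sets stood at -0.10 (bright) and -0.28 (dim), both with overlapping genotypes. Rpl13a, which encodes a large-subunit protein often used as a reference transcript, had 6863.6, 7205.6 and 6802.2 against 6525.9, 5109.9 and 6643.7, with transgenic 2 well below the other arrays. The other probe sets of Rpl13a ran from -0.18 to -0.02, all with overlapping genotypes. Rplp2 is described with the stalk.

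**Figure D3:**
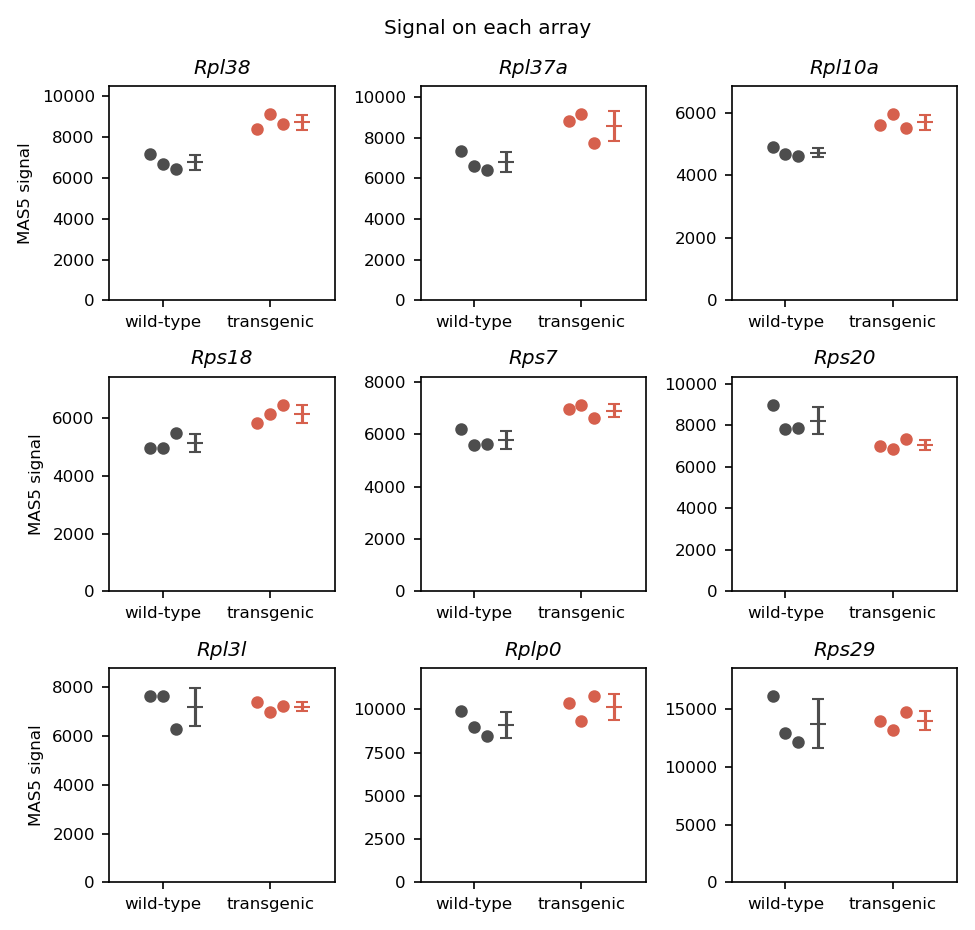
MAS5 signal on each array (points) with the mean and SD beside them for 9 ribosomal protein genes in wild-type (grey) and transgenic (red) muscle, each panel on its own axis from 0. The genotypes do not overlap for Rpl38, Rpl37a, Rpl10a, Rps18, Rps7 and Rps20 and overlap for Rpl3l, Rplp0 and Rps29.

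By subunit, 26 large-subunit genes were tested, with a median log2 difference of 0.05. Of these, 1 was called higher, 3.85%, against 13.4% of all tested genes called. Without overlap 8 were higher and 2 lower, 38.5%, against 33.3% of all tested genes, 18.6% higher and 14.7% lower. At an unadjusted p below 0.05 there were 5 large-subunit genes, 19.2%. The 22 small-subunit genes tested had 0 calls by limma and 3 at an unadjusted p below 0.05, 13.6%, where all tested genes had 27.9%. The small-subunit median was 0.08, and 2 genes were higher and 1 lower without overlap, 13.6%. Over the alternatives the median ran from -0.10 to 0.13 for the large subunit and from -0.07 to 0.12 for the small subunit. A difference between the subunits was not tested.

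The stalk of the large subunit, which recruits the translation factors, is formed by Rplp0 with Rplp1 and Rplp2. Rplp0 gave 9912.5, 8963.4 and 8444.0 in wild-type arrays and 10356.4, 9319.4 and 10769.9 in transgenic arrays, overlapping ranges with a log2 difference of 0.16 and a 95% interval of -0.06 to 0.37. Rplp2 gave 7277.8, 7399.4 and 7588.8 against 7080.8, 5857.4 and 6721.2. Its difference was -0.18 with an interval of -0.40 to 0.03 and a limma adjusted p of 0.263. The signs of these stalk partners were therefore opposite, with neither passing the test, and Rplp1 appears only in probe sets shared with other genes. A bright one that lists Rplp1 with Gm13777 stood at -0.01, with an interval of -0.22 to 0.19 and overlapping genotypes.

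Rpsa, whose product is also known as the laminin receptor precursor, had 4510.0, 4286.9 and 4510.9 in wild-type arrays and 4759.0, 5325.3 and 4507.1 in transgenic arrays. Its log2 difference was 0.13, and -0.02 with median scaling. Rps6, the substrate of S6 kinase, had only dim probe sets among those assigned to a single gene, with 252.8, 227.6 and 264.4 against 317.6, 283.0 and 218.4 and a difference of 0.12 (95% interval -0.23 to 0.46), which was -0.03 with median scaling. The brightest of the probe sets that list Rps6 with Rps6-ps4 stood at 0.07 (interval -0.12 to 0.27). Neither gene passed the test, and their genotypes overlapped.

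The 5 genes with the brightest probe sets were Rps29, Rplp0, Rps2, Rpl4 and Rps28. Rps29 ran at 16121.0, 12914.3 and 12180.5 in wild-type arrays and 13979.4, 13139.1 and 14777.3 in transgenic arrays, a log2 difference of 0.03 with an interval of -0.22 to 0.28. Rps2, which lies at the messenger entry site, had 9728.9, 9213.7 and 7433.7 against 10762.1, 9806.3 and 9116.8, a difference of 0.18 with an interval of -0.08 to 0.43. The difference was 0.07 for Rpl4, which reaches into the exit tunnel, and 0.11 for Rps28. All 5 overlapped between genotypes, and Rps29, Rpl4 and Rps28 turned negative with both other scalings.

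Among the other genes without a call, the log2 difference ran from -0.06 to 0.15 for Rps19, Rps26, Rps14, Rps10, Rps15, Rps3, Rps24, Rps9 and Rps3a1. Rpl8, Rpl19, Rpl27, Rpl35 and Rpl6 lay between 0.01 and 0.20. Rpl27a, Rpl37, Rpl14, Rpl12 and Rps25 had dim probe sets, with differences between -0.38 and 0.29 and wider intervals. Rpl41, which encodes an extremely short peptide, had 3501.4, 5566.1 and 5493.0 in wild-type arrays and 2380.6, 4767.7 and 4436.0 in transgenic arrays. Replicate 1 was the lowest array in each genotype, and the difference was -0.36 with an interval of -0.92 to 0.19. The other probe sets of Rpl41 were positive, at 0.13 on a bright one and at 0.33 and 0.16 on dim ones. Rps16, with signals from 1.1 to 6.5, was too dim to test.

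**Figure D4:**
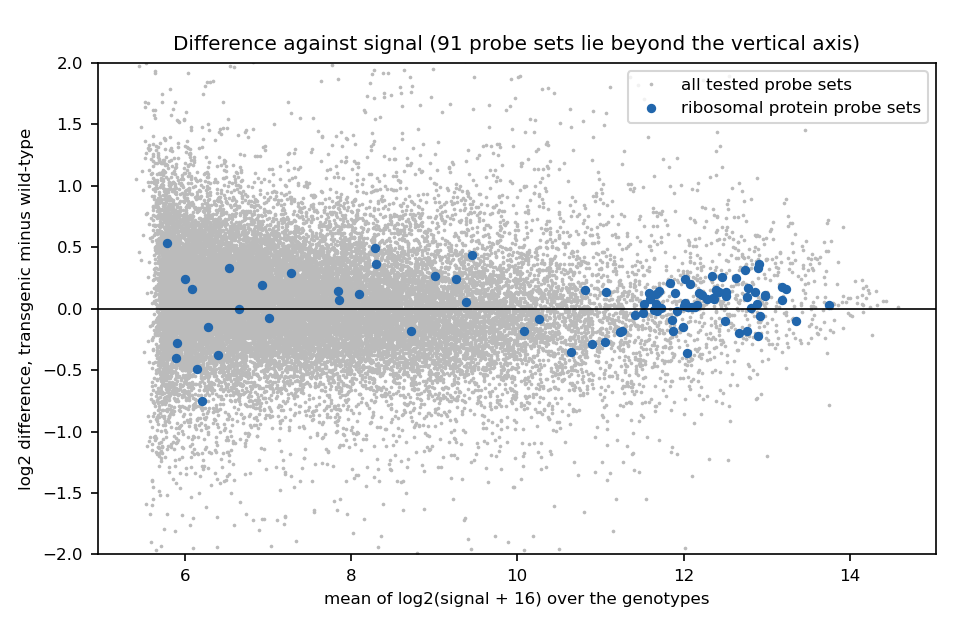
Log2 difference against mean log2(signal + 16) for the 26995 tested probe sets (grey) and the 93 ribosomal protein probe sets (blue). Most bright ribosomal protein probe sets lie near 0 at the right of the cloud, and the largest differences belong to dim ones. Bright ones further from 0 include Rpl38 at 0.37, Rpl37a at 0.33 and Rpl41 at -0.36. The vertical axis leaves out 91 probe sets.

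Rpl3l differed between the genotypes by less than the spread of the wild-type arrays. Its probe set gave 7622.3, 7643.0 and 6303.7 in wild-type arrays and 7385.7, 7000.8 and 7215.9 in transgenic arrays, with means of 7190 ± 767 and 7201 ± 193 (SD, n = 3 each). The transgenic arrays lay inside the range of the wild-type arrays. The log2 difference was 0.01 with a standard error of 0.10 and a 95% interval of -0.21 to 0.23, which in fold terms is 0.863 to 1.17, and the limma adjusted p was 0.973. The difference was -0.15 with median scaling, -0.12 with quantile normalization and -0.08 without wild-type 3, the lowest array, and it did not pass under any of 19 alternatives.

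Rpl3 itself has no probe set of its own here. The brighter probe set that lists Rpl3 also lists the predicted gene Gm12816, so its signal cannot be assigned to Rpl3 alone. It gave 1424.2, 1389.5 and 2259.5 in wild-type arrays and 1741.2, 2197.3 and 1805.8 in transgenic arrays, with wild-type 3 the highest array. The log2 difference was 0.21 with an interval of -0.19 to 0.60 (limma adjusted p = 0.511). The dimmer probe set, which lists Gm5879, Gm12816 and Rpl3, gave 21.7, 16 and 36.2 against 74.2, 63.7 and 51.0. That difference was 0.98 with a limma adjusted p of 0.0722, at signals near the filter.

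The log2 ratio of the Rpl3l signal to that of the brighter shared probe set was 2.41, 2.45 and 1.47 in wild-type arrays and 2.07, 1.66 and 1.99 in transgenic arrays. Signals of different probe sets have no common scale, so only the change of the ratio between genotypes can be read. The difference was -0.20 (exact two-sided permutation p = 0.6, and 0.1 is the smallest p that 3 arrays against 3 allow). Wild-type 3 alone lay below all transgenic arrays, and the difference was -0.52 without it. Leaving out wild-type 2 gave -0.03, wild-type 1 gave -0.05 and transgenic 2 gave -0.08. In wild-type 3 the adipocyte markers Adipoq, Lep and Retn summed to the highest signal of all arrays (10228 against 1729 to 5048 in transgenic muscle), and their part in this ratio was not tested.

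In the other pairs of related genes, neither partner passed the test by itself, and a shift from one partner to the other was not tested. Rpl22 and Rpl22l1, whose products can replace each other in the large subunit, had log2 differences of 0.01 and -0.09. Rpl22 gave 4288.7, 4387.0 and 3968.3 in wild-type arrays and 4214.9, 4154.1 and 4353.3 in transgenic arrays. Rpl22l1 gave 4360.6, 4128.4 and 3061.1 against 3651.6, 4058.3 and 3094.0, with replicate 3 the lowest in each genotype. The intervals were -0.19 to 0.21 and -0.41 to 0.24, and the sign of Rpl22 turned with both other scalings.

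Rps27l, a p53-responsive relative of Rps27, had 2501.4, 2974.4 and 2369.3 in wild-type arrays and 2131.1, 2522.8 and 2250.8 in transgenic arrays. Its log2 difference was -0.18 with an interval of -0.43 to 0.07, and its 3 probe sets ran from -0.28 to -0.18. The dimmest, at -0.28, had an interval of -0.49 to -0.08 and a limma adjusted p of 0.0718. All transgenic arrays lay below all wild-type arrays on that probe set, while the genotypes overlapped on the brighter ones. Rps27 rested on a single dim probe set with signals from 39.2 to 171.6, and its difference of -0.0028 had an interval of -0.99 to 0.98. The probe set that lists Rps27 with Rps27rt gave 4803.3, 4151.9 and 4427.4 against 4495.6, 5070.6 and 4677.4, a difference of 0.09 with an interval of -0.12 to 0.30. Neither partner passed the test, and the difference between them was not tested.

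Rpl39l, a relative of Rpl39 known from the testis, had 81.6, 45.2 and 83.2 in wild-type arrays and 27.7, 92.3 and 29.3 in transgenic arrays. The log2 difference of -0.49, opposite in sign to the 0.49 of the dim Rpl39 probe set, had an interval of -1.32 to 0.34. Rps4l, a relative of the X-linked Rps4x, had 53.7, 65.8 and 137.4 against 71.4, 13.6 and 54.9, and a difference of -0.75 (limma adjusted p = 0.303). Rps4x had 7657.2, 6631.3 and 7079.9 against 8071.5, 8036.2 and 7297.6 and a difference of 0.13, which was -0.02 with median scaling. The added constant understates the differences of dim genes such as Rpl39l and Rps4l.

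Rpl7l1, a relative of Rpl7, had 376.0, 499.1 and 496.0 in wild-type arrays and 574.9, 573.3 and 502.2 in transgenic arrays at its brightest probe set, with a log2 difference of 0.27 (limma adjusted p = 0.259). Its 3 probe sets ran from -0.40 to 0.36. The 3 probe sets of Rpl7 also disagreed, with 0.13 at the brightest, -0.18 at the next and -0.35 at the dimmest, and the sign of the gene therefore depends on the probe set used. Rpl10 appears only in shared probe sets and was not compared with a relative.

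Disagreement between probe sets of a gene was common. For 20 genes 2 or more probe sets could be tested, and 10 of these had both positive and negative log2 differences, and the median range within a gene was 0.21. Rpl35 is an example with 6 probe sets. Its brighter 5 lay between -0.02 and 0.14, and the dimmest, with signals from 16.4 to 61.7, was at 0.54. Of the 105 probe sets, 40 have identifiers of the type whose probes can match unrelated transcripts, and 14 genes had such a probe set as their brightest. The RefSeq gene table holds 321 names of the form given to ribosomal protein pseudogenes, so signal from processed copies cannot be separated from the parent gene here.

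The family is also measured by 110 probe sets that list a member of the symbol pattern together with other genes, and 28 genes appear only there. These were examined after the data had been seen. Of 103 tested, 3 were called, all higher, or 2.91% against 11.5% of all tested probe sets, and the median log2 difference was 0.05. Of the 3 probe sets for Rpl36 and Rpl36-ps12, the one called gave 1491.1, 1829.5 and 1587.9 in wild-type arrays and 2386.2, 2707.3 and 2260.0 in transgenic arrays, a difference of 0.58 (limma adjusted p = 0.00833), and the others stood at 0.22 and 0.32. Of the 4 that list Rpl23, the one called gave 6214.7, 5950.1 and 6009.5 against 8485.4, 8529.6 and 7401.0, a difference of 0.42 (limma adjusted p = 0.0142), and the others stood at 0.20, 0.19 and, on a dim probe set, -0.02. Of the 2 that list Rpl12, the one called gave 4268.1, 3783.8 and 4147.2 against 5096.1, 6323.5 and 4933.9, a difference of 0.41 (limma adjusted p = 0.0387), while the other, also bright, stood at -0.07 and the dim single-gene probe set of Rpl12 at -0.38. In each of these 3 all transgenic arrays lay above all wild-type arrays, and the gene behind the signal is not settled.

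For 9 genes whose own probe set was dim, Rpl39, Rpl27a, Rpl37, Rps6, Rps27, Rps25, Rpl14, Rpl12 and Rps16, a brighter probe set lists the gene with others. At the brightest of these the log2 difference ran from -0.38 for Rps25 to 0.41 for Rpl12, and 1 of the 9, that of Rpl12, was called. The probe set that lists Rps25, a small-subunit protein gene, gave 5248.0, 4950.3 and 5027.8 against 4338.8, 3014.9 and 4528.1, all transgenic arrays below all wild-type arrays and transgenic 2 the lowest (limma adjusted p = 0.119). For the other 7 it lay between 0.03 and 0.12, which for Rpl39 and Rpl27a is nearer to 0 than the dim single-gene probe set.

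Promoter letters of the ERR family were found in few genes of this group, at shares near those of all genes with a window. The extended ERR element TNAAGGTCA, on either strand, was found in 1 of 43 genes, 2.33%, against 1.43% of the 27025 genes. The half-site AAGGTCA, which the longer element contains, was found in 2 of 43, 4.65%, against 5.38%. They are printed because ERRγ is the factor in the transgene, with the half-site, or the longer element, in capitals.
Rpl3l, chr17:24732435-24732465, plus strand, 243 bases before its second annotated start: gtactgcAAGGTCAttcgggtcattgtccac
Rps3, chr7:99483895-99483935, minus strand, 209 bases before its start, with the element on the opposite strand: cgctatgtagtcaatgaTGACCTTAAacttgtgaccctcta
The log2 difference of Rps3 was 0.04 and that of Rpl3l 0.01. A match of letters is a description and not a binding site. The ETS core CCGGAAG, on either strand, was found in 21 of 43, 48.8%, against 9.93% of all genes with a window. The median difference was 0.12 with it and 0.04 without it, and it was 0.04 with and 0.09 without the pyrimidine run.

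Mitochondrial ribosomal proteins, which translate the messages of the mitochondrial genome, are encoded by separate nuclear genes and were set beside the cytosolic ones. Of 75 tested, 27 were higher, 1 was lower and the other 47 missed the threshold (all tested genes, 7.65% higher and 5.75% lower), and the median log2 difference was 0.28. Of the 48 cytosolic genes, 1 was higher and the median was 0.07. With median scaling the counts were 11 higher and 2 lower for the mitochondrial genes and 0 and 1 for the cytosolic genes, where 4.32% of all tested genes were higher and 9.79% lower. Over the alternatives the median ran from 0.13 to 0.31 for the mitochondrial and from -0.08 to 0.12 for the cytosolic genes. The difference between the families was not tested.

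A set of 7 lists of other genes that make, regulate or work with the ribosome was examined, with 104 of 114 genes tested. Of these, 5 were higher, 7 were lower and the other 92 missed the threshold, around a median log2 difference of -0.10. These calls are 11.5% of the 104, against 13.4% of all tested genes. With median scaling 1 was higher and 17 were lower, and of all tested genes 4.32% were higher and 9.79% lower. Fau, which encodes a small-subunit protein fused to a ubiquitin-like peptide, was the measured 1 of 4 further ribosome components, with 2505.1, 2426.0 and 2320.3 in wild-type arrays and 2573.8, 2642.8 and 2443.4 in transgenic arrays. Its difference was 0.08, and -0.07 with median scaling. Eef1a2, the elongation factor of adult muscle, had a difference of -0.03.

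Of 14 genes for translation factors and other messages with the pyrimidine motif, 0 were higher and 1 was lower. That gene was Pabpc1, which encodes a poly(A)-binding protein, with 4158.4, 3351.9 and 4063.4 in wild-type arrays and 2657.6, 3096.1 and 2612.0 in transgenic arrays (log2 difference -0.46, limma adjusted p = 0.0259). Of 21 initiation factor genes, 0 were higher and 2 were lower, Eif1a at -0.75 (limma adjusted p = 0.0345) and Eif2s2 at -0.32 (0.0388). Of all tested genes, 7.65% were called higher and 5.75% lower. The median was -0.11 in the first of these lists and -0.13 in the second. The calls in these lists depended on single arrays. By limma, Pabpc1 missed without wild-type 1 (adjusted p = 0.107), transgenic 1 (0.102) or transgenic 3 (0.0849), and with quantile normalization (0.0645). Of the 6 fits with 1 array left out, Eif1a passed in those without wild-type 2 or transgenic 3 and reached 0.111 without transgenic 2, and Eif2s2 passed in the one without wild-type 3 and reached 0.138 without wild-type 1.

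Of 14 genes of RNA polymerase I, which makes the ribosomal RNA precursor, Taf1d was higher at 0.54 (limma adjusted p = 0.0371, 0.0674 to 0.114 with any 1 array left out, and 0.110 with median scaling), and 0 were lower. Of 34 nucleolar assembly factor genes, 4 were higher and 2 lower, with a median of -0.12. Of all tested genes, 7.65% were called higher and 5.75% lower. Nob1, an endonuclease that finishes the small-subunit RNA, had 183.7, 282.8 and 234.0 in wild-type arrays and 389.4, 339.9 and 391.0 in transgenic arrays (log2 difference 0.66, limma adjusted p = 0.0254, and 0.0944 with median scaling). It missed without wild-type 1 (adjusted p = 0.0987 by limma), transgenic 1 (0.0889) or transgenic 3 (0.0780). Gnl3, the gene of nucleostemin, had 617.2, 657.0 and 598.9 against 330.9, 402.1 and 455.1 (log2 difference -0.65, limma adjusted p = 0.0117, and 0.0530 without wild-type 2).

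Of 19 genes of TOR, S6 kinase, 4E-BP and MYC control, 0 were higher and 2 were lower, against 7.65% and 5.75% of all tested genes. Larp1, which encodes the protein that binds the pyrimidine run at the start of ribosomal protein messages, gave 1386.2, 1310.0 and 1076.6 in wild-type arrays and 732.6, 836.8 and 681.2 in transgenic arrays. All transgenic arrays were below all wild-type arrays, with a log2 difference of -0.73, a standard error of 0.13 and a limma adjusted p of 0.00470, and the call passed under all 17 alternatives run for it. Eif4ebp2, a translational repressor that TOR phosphorylates, gave 1286.6, 1621.7 and 1160.8 against 959.7, 857.0 and 915.9 (log2 difference -0.55, limma adjusted p = 0.0216). Of the 6 arrays, leaving out wild-type 3 kept that call, and leaving out any other lost it, with an adjusted p of up to 0.0871 by limma, reached without wild-type 2. The median of this list was 0.04, and -0.11 with median scaling.

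Values of the arrays as a whole stand beside these results. The median signal was 52.1 to 56.3 in wild-type and 57.1 to 61.9 in transgenic arrays at a 2% trimmed mean of 200. Of the 37 brighter ribosomal protein genes, transgenic 2 was the highest of the 6 arrays for 17, and the median log2 deviation of the family was 0.12 on that array and between -0.07 and 0.02 on the others. The ratio of 3′ to 5′ signal was 0.790 to 0.830 for Gapdh and 0.940 to 1.23 for Actb. Of the 11 muscle fibre markers, 0 passed the test by limma, and their summed signal was 175883 to 226593 in wild-type and 191887 to 219620 in transgenic muscle. Of 6 endothelial markers, 5 were higher, with a sum of 1674 to 1793 against 3067 to 3435. Of 5 leukocyte markers tested, 1 was lower, and 0 of the fibroblast, adipocyte, satellite cell, Schwann cell, erythroid and proliferating cell markers passed. The tissue is a mix of cells, so fewer cells of a type and less RNA per cell cannot be told apart, and the part of these marker shifts in the ribosomal protein values was not tested.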

How the data were processed

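The deposited values are MAS5 signal intensities on a linear scale, per the submitters' processing notes, with version and settings not given in the sources used here. Biotin-labelled cRNA was made from total RNA, per the labels' protocols. Neither scanner files nor detection calls were used. Signals were taken as log2(signal + 16), and 64 control probe sets were left out. Probe sets with a mean signal above the 40th percentile, 37.8, were tested between genotypes by a two-sided moderated test (limma 3.58.1, R 4.3.3, eBayes with trend). P-values were adjusted by Benjamini-Hochberg across the 26995 tested. A gene's value is that of its single-gene probe set of highest mean signal. The platform annotation gave the names (1 gene for 34945 probe sets, several for 932, none listed for 9160).

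The family, the lists of related genes and markers, and the rule for named genes were chosen with earlier results of these data known. The rule names Esrrg, Rpl3 and Rpl3l, members that passed, paralog pairs, Rplp0, Rplp1, Rplp2, Rpsa, Rps6, the 5 brightest members, genes whose probe sets differ in call, and up to 2 genes per list. Other genes were named after their values were seen. In simulated data with 26995 probe sets for this comparison, the test recovered 64 of 100 set to a 2-fold change and 93 of 100 set to 4-fold, with 8 false among 165 calls.

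Alternatives were run for the scaling, the filter, the constant, the eBayes variance model, weighting of arrays, a replicate block, arrays left out and the probe set chosen per gene. Counting shared probe sets, and the dimmer Rpl3 probe set, were added after seeing the data.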

Additional observations from a re-analysis of the deposited data

How the results depend on the processing

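The count of ribosomal protein probe sets called, 1 in the report, was 0 with no filter, 3 with a filter at the 60th percentile, 3 (all lower) with median scaling, 0 with no intensity trend, 2 with robust eBayes, 3 with array weights, 4 (3 higher, 1 lower) with 2 arrays against 2, 4 with shared probe sets counted, and 0 to 3 with single arrays left out. The count of genes was 0 with no filter, 2 (Rpl37a and Rpl38) at the 60th percentile, 0 with no trend, 2 (Rpl37a and Rpl38) with robust eBayes, 2 (Rpl38 and Rpl39) with array weights, 2 (Rpl37a and Rpl39) with 2 against 2, and 0 to 3 with single arrays left out. It was 0 without wild-type 2, transgenic 1 or transgenic 2 and 3 without wild-type 3. The cause of these changes was not tested, beyond the fewer or more probe sets that the filters leave. The median difference of the genes was -0.078 with median scaling, 0.0083 with quantile normalization and 0.04 to 0.12 with single arrays left out. The change of the log2 ratio of Rpl3l to the shared Rpl3 probe set was -0.97 with the dimmer probe set and -0.52 to -0.03 with single arrays left out. Of the 48 genes, 21 turned from positive to negative with median scaling and 11 with quantile normalization, all from a difference of at most 0.15 in the report, and 0 turned the other way. Among the genes that the naming rule covers, those that turned with median scaling were Rpl3l (-0.15), Rpl22 (-0.14), Rpl7 (-0.020), Rps4x (-0.021) and Rpsa (-0.023). Rps6 (-0.028), Rps29 (-0.12), Rpl4 (-0.079), Rps28 (-0.040) and Fau (-0.074) turned as well. With quantile normalization, those among the same genes were Rpl3l (-0.12), Rpl22 (-0.011), Rps4x (-0.0043), Rps29 (-0.051), Rpl4 (-0.041) and Rps28 (-0.012). With array weights Rpl3l was at -0.025, Rpl22 at -0.0069 and Rps27 at 0.11, and with 2 against 2 Rpl3l at -0.086, Rpl22 at -0.052, Rps27 at 0.88 and Rps29 at -0.090. Rps27 was at 0.0037 with a constant of 64. Rpl7 was at -0.13 as the mean of its probe sets and at -0.18 with probe sets of the type that can match other transcripts left out, where Rpl22 was at -0.031. With single arrays left out the ranges that crossed 0 were -0.24 to 0.017 for Rpl22l1, -0.12 to 0.023 for Eef1a2, -0.049 to 0.15 for Rps29, -0.084 to 0.054 for Rpl3l, -0.033 to 0.039 for Rpl22 and -0.41 to 0.45 for Rps27. Of the other values of single genes, 590 kept direction and side of the threshold, 59 missed it and 10 newly passed.

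The labels do not say that arrays of equal replicate number pair animals. Their deviations correlated at 0.07, -0.08 and -0.02, and 3 arrays per genotype cannot settle whether they pair. With the replicate block, the count was 1 probe set and 1 gene, Rpl38 at an adjusted p of 0.0475 by limma. Pabpc1 (0.0501), Eif2s2 (0.0728) and Taf1d (0.0697) missed the threshold with the block. Dim probe sets limit what can be said of Rps4l, Rpl39l, Rps27 and Rps16, and the number of arrays limits the precision for all.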
